A study of Rattus norvegicus with 12 samples.

Results

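Angiogenic factors are secreted or membrane proteins that steer the growth of blood vessels, and 10 of their genes were followed here in fibroblast-like synoviocytes (FLS): Vegfb, Vegfc, Angpt1, Angpt2, Angptl2, Angptl4, Esm1, Egfl7, Nrp1 and Hgf. The genes were taken by name from a table of 22442 gene records, and where a name had several records the one with the highest mean would have been used, but each name had 1 record. A record was found for 9 of the 10 names, and Vegfb was not analysed here. The records that reached a mean of 1 FPKM over the 12 libraries numbered 7 among these genes and 11611 in all, and only those were tested. FPKM counts sequenced fragments relative to transcript length and to the mapped reads of the library, so levels may also be compared between genes.

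The FLS came from the synovium of male Sprague Dawley rats with adjuvant arthritis, induced with complete Freund's adjuvant and harvested 13 to 15 days later, and were used at passage 3. All 4 groups held such arthritic FLS, with 3 libraries each, and cells of healthy rats were not part of the data. The FCA group received DMEM alone, and the AT01, AT1 and AT10 groups received taurochenodeoxycholic acid (TCDCA), a taurine-conjugated bile acid, at 0.1, 1 and 10 µM for 12 h. The sources used here give no age of the rats and do not say whether the 3 libraries of a group were separate cultures, so p-values measure only the spread between these libraries.

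In the arthritic joint, new vessels grow into the thickened synovium, and the fibroblast-like cells of its lining are a known source of vessel growth signals. VEGF-family ligands act on the receptors Flt1, Kdr and Flt4 with neuropilins as co-receptors, angiopoietins act on the receptor Tek, and HGF acts on Met. Esm1, also called endocan, is a secreted dermatan sulphate proteoglycan that is best known from endothelial tip cells and that responds to VEGF, and Egfl7 is a secreted EGF-like protein also best known from endothelium.

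The 12 libraries were alike in their summed FPKM and in their correlation with each other. FPKM summed to between 284210 and 309696 per library, and the correlation of log2(FPKM + 1) between libraries, across genes that are not independent replicates, ran from 0.926 to 0.951. AT01 replicates 1 and 3 had the lowest mean correlation with the others, at 0.935 for both. From a principal components analysis, the paper describes 10 of the 12 samples as close together, and its text does not name the others. The read counts behind the FPKM values are not part of the table, so the counting error of a value is unknown. The paper lists the reads of each library, which differed, with the most in AT01 replicate 3. Of 12 listed FLS markers, 10 had a record and all 10 were tested, with a mean of 846 FPKM for Col1a1 and 32.5 FPKM for Prg4. Col1a2 and Pdgfra had no record of their name. Of 9 endothelial markers with a record (the listed factors left out), 8 stayed under a mean of 1 FPKM, with Tie1 at 0 in all 12 libraries and Cdh5 at 0 in 11, and the exception was the VEGF receptor Flt1.

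Esm1 stood apart from the other angiogenic factors. It was one of the strongly expressed genes of these cells, it lay at a high level in 7 libraries and at a low level in 5, and all AT10 libraries were low while all AT1 libraries were high. With 2 groups at a time, 1 of the 7 genes tested passed, Esm1 in AT10 against AT1, where it was 5.57-fold lower in AT10 on the scale of FPKM + 1. No factor met the criterion or had a limma adjusted p under 0.05 at any dose of TCDCA against FCA. The criterion was met there by 0.706%, 0.62% and 0.758% of all records in AT10, AT1 and AT01. Vegfc, Angpt1, Angptl2, Angptl4, Egfl7 and Nrp1 lay between 3.2 and 41.9 FPKM in all 12 libraries, Hgf was low, and Angpt2 was close to 0.

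The record of Esm1 (MSTRG.9122) holds 1 transcript, which is the Ensembl transcript. The table has no coordinates, and their build is not given in the sources used here. The promoter sequence of Esm1 is shown because this gene differed most between libraries. It is the RefSeq window of 250 bases before the start of the gene on build GRCr8, chr2:46609003-46609252, plus strand, printed 5′ to 3′ in lower case.

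Esm1 promoter: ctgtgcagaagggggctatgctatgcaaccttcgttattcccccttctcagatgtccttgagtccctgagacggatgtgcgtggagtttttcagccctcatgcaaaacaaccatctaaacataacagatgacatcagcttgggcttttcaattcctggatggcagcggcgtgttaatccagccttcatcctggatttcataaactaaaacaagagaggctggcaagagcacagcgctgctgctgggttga

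Motifs were searched on both strands of the 250 bases before each start. Those of the glucocorticoid receptor and of cAMP were chosen because TCDCA is discussed as acting through that receptor and through the cAMP pathway. The motifs were the glucocorticoid receptor core AGAACA, the cAMP response element TGACGTCA and its core TGACG, which it contains. The hypoxia response core in the form ACGTG and the TATA box core TATAAA were searched as well. None of these letter strings was found in the Esm1 window, so no letters are in capitals. The form GCGTG of the hypoxia core was not searched, and its letters do occur in the Esm1 window. Of 33469 RefSeq windows of the same length, 17.5% held AGAACA, 1.59% TGACGTCA, 18.2% TGACG, 16.6% ACGTG and 12.9% TATAAA. Of the 10 factors, 8 had a window, and ACGTG and TATAAA were found for Angptl4. AGAACA and TGACG were both found in a window of Egfl7, while another Egfl7 window held neither. These are matches of letters in a window only.

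The level of Esm1 was 127, 126 and 21.5 FPKM in the 3 FCA libraries. It was 139.8, 137 and 16.5 FPKM in AT01 and 150.3, 115 and 155 FPKM in AT1. It was 23.5, 23.4 and 25.5 FPKM in AT10. FCA replicate 3 and AT01 replicate 3 therefore lay with the AT10 libraries, and every other library of FCA, AT01 and AT1 lay above 110 FPKM. The same split held within a library, where Esm1 ranked between 292 and 427 of all records by FPKM in the 7 high libraries and between 1982 and 2796 in the 5 low ones. The group means followed the order AT1 at 140.2 ± 22 FPKM (SD, n = 3), AT01 at 97.7 ± 70.3, FCA at 91.5 ± 60.7 and AT10 at 24.2 ± 1.19. The neighbours AT1 and AT01, AT01 and FCA, and FCA and AT10 in this order overlapped.

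**Figure D1:**
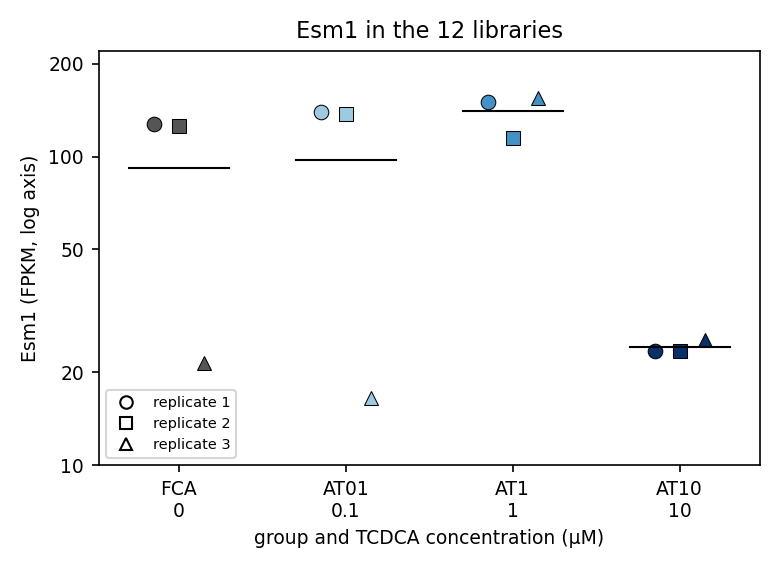
Esm1 in FPKM (log axis) in each of the 12 libraries, by group and TCDCA concentration in µM. Symbols give the replicate number and lines the group means. The 3 AT10 libraries sit between 23.4 and 25.5 FPKM beside FCA replicate 3 and AT01 replicate 3, and the other 7 libraries sit between 115 and 155 FPKM.

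With 10 µM TCDCA the log2 fold change of Esm1 against FCA was -1.51 (standard error 0.702, 95% interval -3.25 to 0.232, limma adjusted p = 0.457). In this comparison, 0 of the 7 factors passed the threshold used by the study, against 0.706% of all records tested. This criterion asks for a log2 fold change beyond 1 in either direction together with p under 0.05 before adjustment. An adjusted p under 0.05 was likewise given to 0 of the 7 factors and to 0.172% of all records. FCA replicate 3 decided this value. Without it the log2 fold change was -2.34, past the criterion, with a limma adjusted p of 0.00216. Without FCA replicate 1 or FCA replicate 2 it was -1.09 each time, with limma adjusted p-values of 0.656 and 0.7. The exact permutation test over all 6 libraries gave p = 0.4, where the smallest p that 3 libraries against 3 allow is 0.1.

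At the lower doses the difference of Esm1 from FCA met neither call rule. Esm1 in AT1 against FCA gave a log2 fold change of 0.97 (standard error 0.714, limma adjusted p = 0.604). The value fell to 0.13 without FCA replicate 3 and rose to 1.39 and 1.38 without FCA replicate 1 or 2. The F test modelled on Ballgown's, which has a library adjustment as a covariate, gave this difference an unadjusted p of 0.00231 over the 6 libraries and an adjusted p of 0.472, with the log2 fold change just under the limit of 1. AT01 against FCA gave -0.04 (standard error 1.08, 95% interval -2.72 to 2.65, limma adjusted p = 0.997), an interval that leaves a wide range of differences possible. This value was -0.87 without FCA replicate 3 and 0.96 without AT01 replicate 3. In these 2 comparisons 0 of 7 factors met the criterion, against 0.62% and 0.758% of all records.

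Between the doses, Esm1 was lower in AT10 than in AT1, with a log2 fold change of -2.48 (standard error 0.128, 95% interval -2.79 to -2.16, limma adjusted p = 0.00298). The 3 AT10 libraries lay below all 3 AT1 libraries, and the exact permutation test gave p = 0.1, the smallest it can give here. By unadjusted p, Esm1 took rank 8 of the 11611 records. Of the 7 factors, 1 met the criterion, against 0.594% of all records in either direction and 0.388% that were lower, and 1 had an adjusted p under 0.05, against 0.258% of all records. The factors were chosen with earlier results of these data known. No conclusion is therefore drawn from this rank or from these counts beside the shares. The log2 fold change lay between -2.61 and -2.4 when each of the 6 libraries was left out in turn, with limma adjusted p-values from 0.00238 to 0.0225. The adjusted p was above 0.05 in 3 other fits, at 0.635 with 1 fit over all 12 libraries, at 0.231 with an F test modelled on Ballgown's and at 0.0769 with the replicate number as a block.

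Against AT01, AT10 had an Esm1 log2 fold change of -1.47 (standard error 0.83, limma adjusted p = 0.867). The low AT01 replicate 3 decided it, since without that library the log2 fold change was -2.47 with a limma adjusted p of 0.00326. Without AT01 replicate 1 or AT01 replicate 2 it was -0.967 and -0.983, with limma adjusted p-values of 0.914 and 0.934. AT1 against AT01 gave a log2 fold change of 1.00 (standard error 0.846, limma adjusted p = 1), which was 0.01 without AT01 replicate 3. Without AT01 replicate 1 or 2 the latter value was 1.51 and 1.49. With all libraries, neither comparison had a factor that met the criterion, against 0.672% and 0.568% of all records. In AT10 against AT01, 0 factors had an adjusted p under 0.05, against 0.0689% of all records. With the 9 TCDCA libraries together against FCA, Esm1 gave -0.19 (standard error 0.857, limma adjusted p = 0.94), and 0.491% of all records met the criterion.

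**Figure D2:**
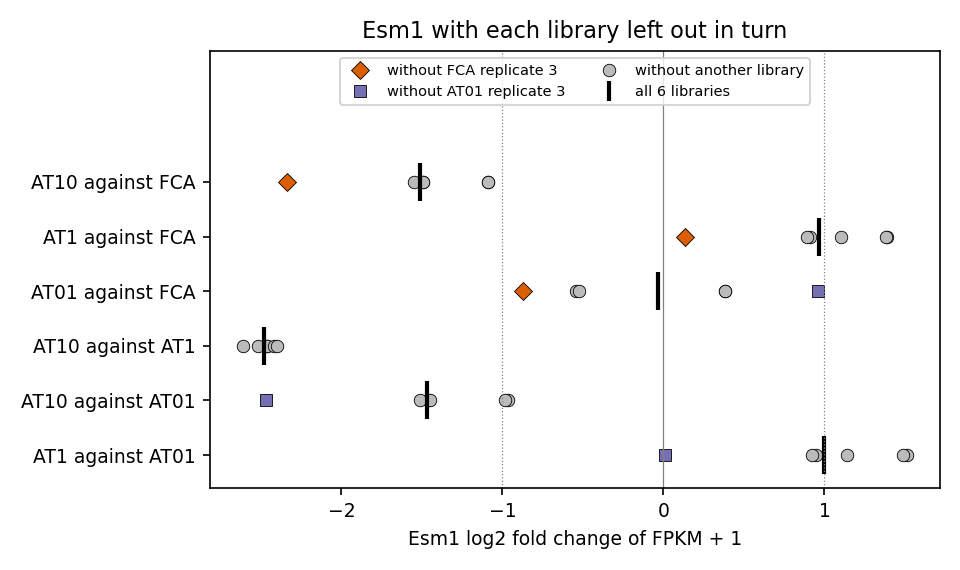
Esm1 log2 fold change of FPKM + 1 in the 6 comparisons of 2 groups, with all 6 libraries (vertical bars) and with each library left out in turn (points). Leaving out FCA replicate 3 or AT01 replicate 3 moved the values most, from -1.51 to -2.34 in AT10 against FCA and from -1.47 to -2.47 in AT10 against AT01, while AT10 against AT1 stayed between -2.61 and -2.4.

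The 2 levels of Esm1 were separated by a gap of 2.13 on the log2 scale, while the low level spanned 0.598 and the high level 0.43. By a definition chosen after such records had been seen (a widest gap of at least 1 that exceeds the range of either level, with at least 2 libraries on each side), 525 of the 11611 records, or 4.52%, lay at 2 levels. None of the other 6 factors tested did so. Of the records at 2 levels, Pyurf split the 12 libraries exactly as Esm1 did and Topors split them the opposite way. In the 7 libraries with high Esm1, Pyurf had between 2.81 and 5.54 FPKM, and it had at most 0.19 FPKM in the other 5. Topors had at most 0.45 FPKM in those 7 libraries and between 2.33 and 4.98 FPKM in the other 5.

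By Pearson's correlation of log2(FPKM + 1) over the 12 libraries, the 3 named records most like Esm1 were Pyurf at 0.981, Pccb at 0.89 and Slc25a12 at 0.888, of 11610 records compared. Pccb ranged only from 12.4 to 14.9 FPKM, and Slc25a12 from 5.83 to 7.08 FPKM. Within the 7 libraries with high Esm1 these 3 coefficients were 0.0516, 0.488 and 0.118. The points share their libraries and the scaling of each library to its mapped reads. Topors, at -0.975, and Fam189a1, at -0.92, were the most opposed and were named after their values had been seen. Among the other factors, Angptl2 was most like Esm1, at 0.607, which placed it at rank 413, and Vegfc, at -0.23, was least like it. Within the 7 libraries with high Esm1 the order was another, with 0.816 for Angpt1, 0.745 for Angptl2 and -0.762 for Vegfc.

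**Figure D3:**
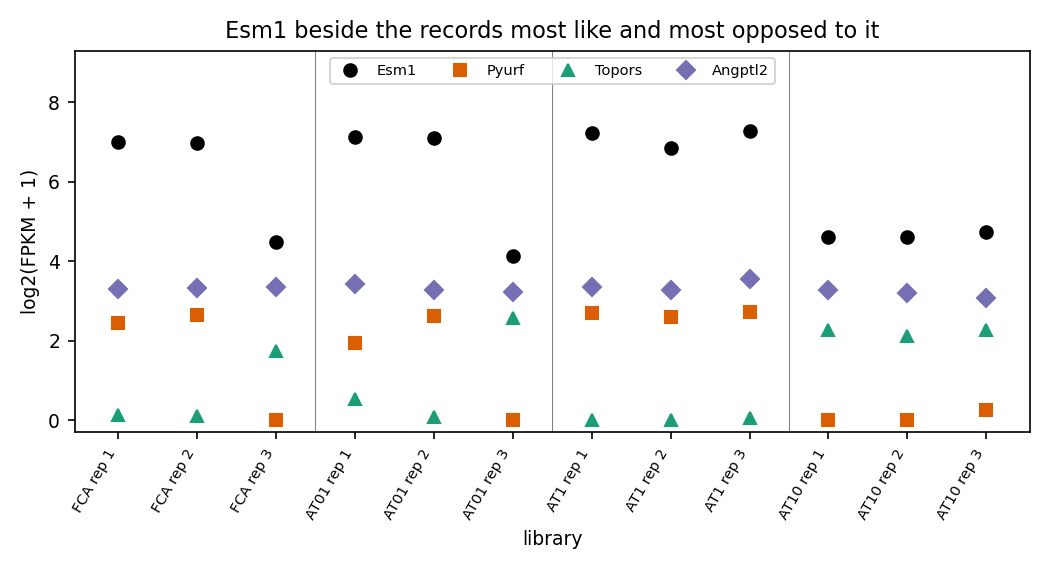
log2(FPKM + 1) of Esm1, Pyurf, Topors and Angptl2 in each library, with vertical lines between the groups. Pyurf was high in the 7 libraries with high Esm1 and Topors was high in the other 5, while Angptl2 stayed between 7.36 and 10.7 FPKM throughout.

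None of the genes next to Esm1 with a record was seen to share its 2 levels, and those near 0 FPKM could not show them. In the RefSeq gene order, the closest neighbours with a record of their name are Gzmk and Gzma, granzyme genes of lymphocytes, on 1 side. Snx18 and Hspb3 are those on the other side, beyond Cspg4b, which has no record of that name. The records numbered next to that of Esm1, 1 without a name and 1 named RGD1561161, had 0.11 to 1.36 and 0.45 to 1.56 FPKM. Gzmk and Gzma reached at most 0.14 and 0.1 FPKM, and Hspb3 at most 0.07 FPKM. Snx18 ran from 0.12 to 25.6 FPKM, with a correlation with Esm1 of 0.0593 over the 12 libraries. Gpx8, the next gene beyond Gzma, ran from 343 to 489 FPKM.

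Summed levels of the marker lists differed between the groups. The sum of the 9 endothelial markers, nearly all of it Flt1, was 11.5 to 17 FPKM in FCA, 9.46 to 12.2 in AT01, 7.09 to 8.88 in AT1 and 9.04 to 15.8 in AT10, so that AT1 lay below every other group. The sum of the 10 FLS markers was 8242 to 9011 FPKM in FCA, 7884 to 8783 in AT01, 7855 to 8676 in AT1 and 6942 to 7906 in AT10, and AT10 lay below FCA. Most of this sum came from S100a4 and Vim, at means of 3376 and 2658 FPKM. Most of the sum for pericytes and smooth muscle (9 of 10 markers with a record) came from Acta2, at a mean of 245 FPKM. This sum was 321 to 422 FPKM in FCA, 239 to 297 in AT01, 264 to 302 in AT1 and 172 to 320.4 in AT10. Every TCDCA library lay below every FCA library, but only narrowly, with 320.4 FPKM in the highest AT10 library and 321 FPKM in the lowest FCA library. No share over all records was set beside these sums. The 7 macrophage markers with a record, most of their sum from Cd14, were 6.9 to 22.1 FPKM in FCA, 7.24 to 20.6 in AT01, 5.89 to 17.9 in AT1 and 18.9 to 21.7 in AT10. In AT10 against AT1, the comparison in which Esm1 met the criterion, the macrophage and endothelial sums were thus higher in all AT10 libraries, while the other sums overlapped. The correlation of log2(sum + 1) with Esm1 over the 12 libraries was 0.671 for FLS, 0.205 for pericytes and smooth muscle, -0.123 for macrophages and -0.194 for endothelium, and within the 7 libraries with high Esm1 it was -0.727, -0.366, -0.488 and -0.475. Their part in the level of Esm1 was not tested, and in such bulk libraries fewer cells of a type and less RNA per cell cannot be told apart.

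Egfl7 (MSTRG.10811), a secreted factor of vessels like Esm1, had 19.1, 22.1 and 21.1 FPKM in FCA and 20.9, 18 and 16.6 FPKM in AT01. It had 17.8, 18.2 and 21.2 FPKM in AT1 and 21.9, 18.5 and 16.8 FPKM in AT10. The groups overlapped, although 6 of the 9 TCDCA libraries lay below every FCA library. Egfl7 differed from FCA by log2 fold changes of -0.12 for AT10, -0.12 for AT1 and -0.16 for AT01, with limma adjusted p-values of 0.674, 0.631 and 0.803. With the TCDCA libraries together it was -0.13 (standard error 0.0888, 95% interval -0.326 to 0.0618, limma adjusted p = 0.571).

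Vegfc (MSTRG.6984), the VEGF-family ligand of Flt4 that is best known for lymphatic vessels, had 13.4, 13.2 and 13 FPKM in FCA. The AT01 libraries had 13, 13.7 and 11.7 FPKM, the AT1 libraries 9.8, 13.4 and 10.8 FPKM and the AT10 libraries 13.8, 10.7 and 19.3 FPKM. The FCA libraries lay close together and the TCDCA libraries lay on both sides of them, with 4 above and 5 below every FCA library. AT10 replicate 3 was the highest of the 12. For Vegfc, the log2 fold change from FCA to AT10 was 0.10 (standard error 0.199, limma adjusted p = 0.848), with -0.21 for AT1 (standard error 0.116, limma adjusted p = 0.508) and -0.04 for AT01 (standard error 0.0799, limma adjusted p = 0.913). The AT10 value was -0.11 without AT10 replicate 3.

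Nrp1 (MSTRG.8907), the co-receptor of VEGF and of class 3 semaphorins, had 12.3, 10.5 and 14.1 FPKM in FCA and 12.3, 13.7 and 12.3 FPKM in AT10. It had 19.5, 13.8 and 23.8 FPKM in AT01 and 13.6, 20.4 and 14.7 FPKM in AT1. Its highest values were thus in the groups of lower dose, where 2 libraries of AT01 and 1 of AT1 lay well above all others. In AT01 against FCA the log2 fold change was 0.57 (standard error 0.213, 95% interval 0.0419 to 1.09, limma adjusted p = 0.72, exact permutation p = 0.2). AT10 lay below all 3 AT01 libraries, with -0.51 (standard error 0.195, limma adjusted p = 0.867, exact permutation p = 0.1). Nrp1 was the only factor with an unadjusted p under 0.05 in either comparison, against 6.6% and 4.97% of all records. It was also the only factor without overlap between AT10 and AT01, against 11.1% of all records. Nrp1 in AT1 against FCA gave 0.36 (standard error 0.178, limma adjusted p = 0.476) and in AT10 against FCA 0.06 (standard error 0.115, limma adjusted p = 0.841).

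The 2 angiopoietins with a record, ligands of the endothelial receptor Tek, differed widely in level. Angpt1 (MSTRG.16030), which activates Tek, had 3.2, 3.38 and 5.62 FPKM in FCA and 4.11, 4.85 and 4.72 FPKM in AT01. It had 5.73, 3.99 and 6.97 FPKM in AT1 and 4.56, 4.58 and 5.25 FPKM in AT10. FCA replicate 3 overlapped with every dose, and the difference from FCA on the log2 scale was 0.22 for AT10, 0.38 for AT1 and 0.16 for AT01, with limma adjusted p-values of 0.649, 0.571 and 0.852. Angpt2 (MSTRG.7157), which is held to oppose Angpt1 at Tek in many settings, reached at most 0.07 FPKM and was listed at 0 in 2 FCA libraries, 1 AT1 library and 1 AT01 library. No fold change is given for it at this level. Tek itself had 0.01 to 0.12 FPKM.

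The angiopoietin-like proteins share the fold of the angiopoietins but do not bind Tek. Angptl2 (MSTRG.10976), known as an inflammatory mediator, had 8.9, 9.01 and 9.12 FPKM in FCA and 8.63, 8.2 and 7.36 FPKM in AT10. It had 9.82, 8.64 and 8.37 FPKM in AT01 and 9.26, 8.65 and 10.7 FPKM in AT1. The AT10 libraries lay below the FCA libraries and below the AT1 libraries. The log2 fold change of Angptl2 was -0.15 against FCA (standard error 0.075, 95% interval -0.332 to 0.0402, limma adjusted p = 0.495) and -0.22 against AT1 (standard error 0.102, limma adjusted p = 0.748), each with an exact permutation p of 0.1. Angptl2 was the only one of the 7 factors without overlap between AT10 and FCA, against 19.9% of all records, and with Esm1 it was 1 of 2 without overlap between AT10 and AT1, against 13.9%.

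Angptl4 (MSTRG.15688), an inhibitor of lipoprotein lipase that hypoxia and fatty acid receptors induce, had 29.6, 35.4 and 33.7 FPKM in FCA. It had 41.9, 36.3 and 28.3 FPKM in AT01, 31.6, 35.3 and 30.9 FPKM in AT1 and 31.3, 32.4 and 32.3 FPKM in AT10. All groups overlapped with FCA, and the AT10 libraries lay closest together. The log2 fold change of Angptl4 against FCA was -0.04 in AT10 (95% interval -0.235 to 0.16), -0.01 in AT1 (95% interval -0.24 to 0.216) and 0.09 in AT01 (95% interval -0.3 to 0.481), with limma adjusted p-values of 0.855, 0.966 and 0.902. Next to Esm1, Angptl4 had the highest mean of the factors, at 33.3 FPKM.

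Hgf (MSTRG.12231), the ligand of Met that fibroblasts secrete as a precursor, stayed under 1 FPKM in every library and was left out of the tests for that reason. It had 0.68, 0.44 and 0.68 FPKM in FCA and 0.77, 0.67 and 0.74 FPKM in AT01. It had 0.83, 0.79 and 0.94 FPKM in AT1 and 0.73, 0.93 and 0.96 FPKM in AT10. Thus 8 of the 9 TCDCA libraries lay above every FCA library, and the exception was AT01 replicate 2. This was the highest such count among the 9 factors with a record. Shares over all records were not computed for such counts, here or for Egfl7 and Vegfc, nor for permutation p-values. The exact permutation test of the 9 TCDCA libraries against FCA gave p = 0.0182, where the smallest possible p is 0.00455, for means of 0.818 ± 0.104 and 0.6 ± 0.139 FPKM (SD, n = 9 and n = 3). In a fit of all 21956 records above 0 in at least 1 library, this was a log2 fold change of 0.19 (standard error 0.0688, limma adjusted p = 0.475), and 8.9% of all records had an unadjusted p under 0.05. Met, its receptor, had 0.5 to 1.01 FPKM, and FPKM values under 1 carry an unknown counting error.

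**Figure D4:**
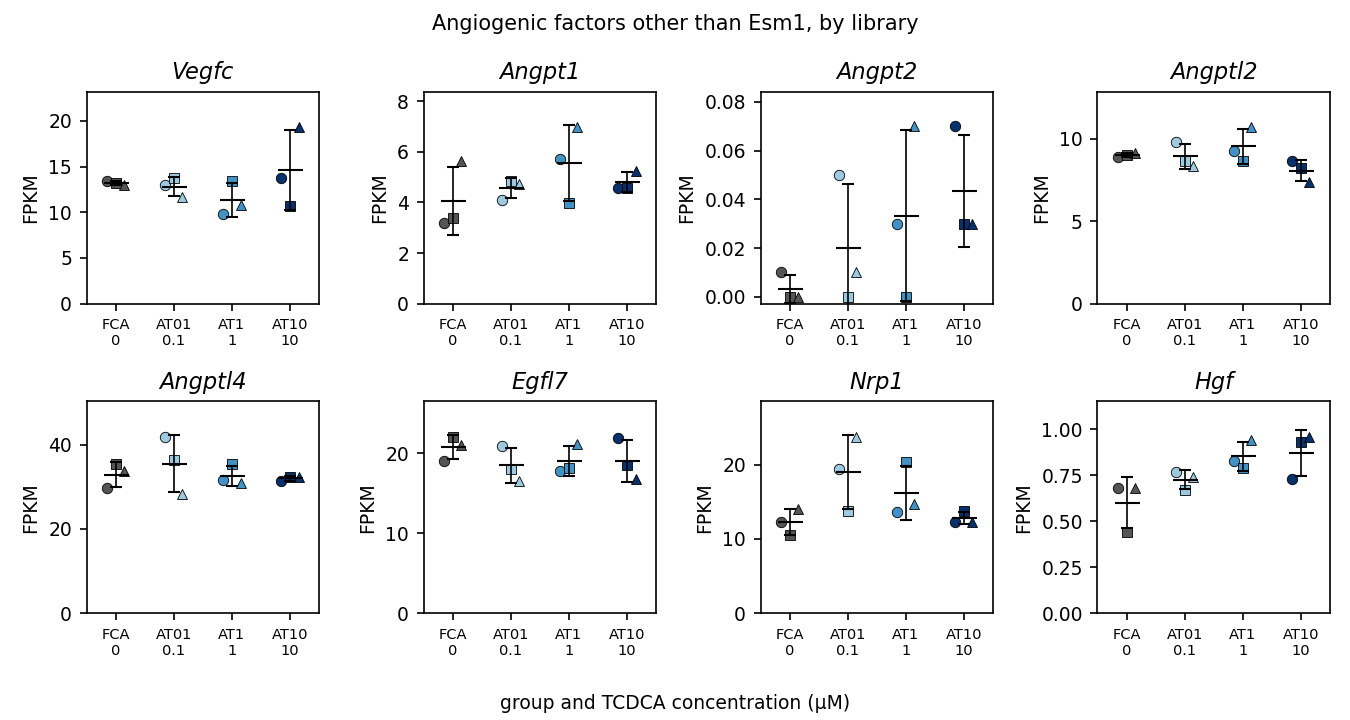
FPKM of the 8 other factors with a record in each of the 12 libraries, by group and TCDCA concentration in µM, with group means and SD (n = 3). Symbols give the replicate number as in the plot of Esm1, and each panel has its own axis from 0. Hgf lay under 1 FPKM and Angpt2 at or under 0.07 FPKM, and the other 6 ran from 3.2 FPKM (Angpt1) to 41.9 FPKM (Angptl4).

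Over the 4 groups at once, limma's moderated F test gave 0 of the 7 factors an adjusted p under 0.05, against 0.0431% of all records, and 0 an unadjusted p under 0.05, against 8.57%. The smallest adjusted p-values were 0.589 for Nrp1 and 0.605 for Esm1. The median log2 fold change of the 7 factors was -0.04 in AT10 against FCA, 0.07 in AT1 and -0.01 in AT01, beside medians of -0.01, 0.02 and 0.00 over all 11611 records. By limma at an unadjusted p under 0.05, 0 factors passed in AT10 against FCA, against 11.9% of all records, 0 in AT1 against FCA, against 11%, and 1 in AT01 against FCA, which was Nrp1. The F test modelled on Ballgown's met the criterion of the study for 1 factor in AT10 against AT1, beside 0.405% of all records, and for 0 in each of the other comparisons. The shares of all records there were 0.388%, 0.293% and 0.379% in AT10, AT1 and AT01 against FCA, 0.474% and 0.215% in AT10 and AT1 against AT01 and 0.284% for TCDCA against FCA. The 3 comparisons with FCA share the same control libraries, FCA replicate 3 among them.

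**Figure D5:**
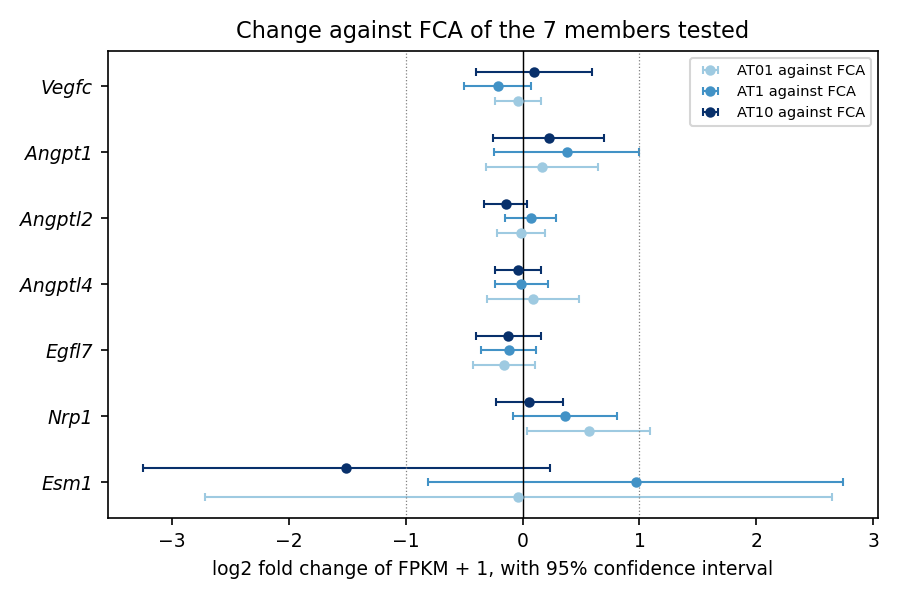
log2 fold change of FPKM + 1 against FCA with its 95% confidence interval for the 7 factors tested and the 3 doses. Dotted lines mark -1 and 1. The intervals of Esm1 are the widest, from -3.25 to 0.232 in AT10, and the point estimates of the other 6 factors lie between -0.21 and 0.57.

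The 4 lists of related genes (ligands, receptors, inhibitors and modulators, and the activation of HGF) named 69 further genes, of which 61 had a record and 42 were tested. Against FCA, 1 of the 42 met the criterion in AT10, 0 in AT1 and 0 in AT01, beside 0.706%, 0.62% and 0.758% of all records. Their median log2 fold changes were -0.05, 0.01 and -0.03, beside the medians of all records of -0.01, 0.02 and 0.00. None of the 42 lay at 2 levels as Esm1 did. Of the receptors, Flt1 had 6.67 to 16.8 FPKM, Flt4 2.14 to 4.46 FPKM and Nrp2 26.9 to 39.6 FPKM, whereas Kdr, the main VEGF receptor of endothelium, had at most 0.08 FPKM.

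Among the ligands, 12 of 20 were tested and none met the criterion. Vegfa had 20.2 to 32 FPKM. Cyr61, a matricellular ligand of integrins, and Pdgfa had the highest means, at 325 and 35.4 FPKM. Cyr61 was 193, 218 and 213 FPKM in AT01 and 391, 421 and 375 FPKM in AT1, without overlap. The share of all records without overlap between these groups is not reported here. Its log2 fold change in AT1 against AT01 was 0.93 (standard error 0.0826, limma adjusted p = 0.0389) and thus under the fold of the criterion. It was the 1 gene of the 42 with an adjusted p under 0.05 there, against 0.129% of all records. In FCA, Cyr61 ran from 255 to 465 FPKM, and its adjusted p was above 0.05 whenever any of the 6 libraries was left out, from 0.0587 to 0.186.

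Of the receptors and co-receptors, 9 of 18 were tested and none met the criterion. The most abundant were the integrin subunits Itga5 and Itgav, at means of 34.3 and 33.5 FPKM. Itga5, the alpha chain of the fibronectin receptor, had 43.9, 36.9 and 39 FPKM in FCA and 41.5, 39.2 and 36.7 FPKM in AT10. It had 29.7, 26.4 and 28.3 FPKM in AT01 and 29.4, 30.3 and 30.7 FPKM in AT1. The groups of the 2 lower doses lay below FCA and AT10 in every library. Of all records, 13.9% had no overlap between AT10 and AT1 and 11.1% between AT10 and AT01. The shares for AT01 and AT1 against FCA are not reported here. The log2 fold change of Itga5 against FCA was -0.49 in AT01 (standard error 0.0918, limma adjusted p = 0.371) and -0.39 in AT1 (standard error 0.0773, limma adjusted p = 0.349), under the fold of the criterion and not past the adjusted threshold.

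Of the inhibitors and modulators, 17 of 22 were tested, and Sema3d, a class 3 semaphorin that guides endothelial cells and axons, met the criterion. Its record (MSTRG.12235) is the higher of 2 with that name. Sema3d had 1.67, 3.86 and 1.82 FPKM in FCA and 7.66, 9.98 and 10.2 FPKM in AT10. It had 0.78, 2.13 and 9.49 FPKM in AT01 and 3.73, 2.23 and 6.59 FPKM in AT1. AT10 lay above FCA and AT1, and AT01 replicate 3, low in Esm1, lay with the AT10 libraries, although FCA replicate 3 did not. Of all records, 19.9% had no overlap between AT10 and FCA and 13.9% between AT10 and AT1. The log2 fold change of Sema3d was 1.62 in AT10 against FCA (standard error 0.259, limma adjusted p = 0.127) and 1.07 in AT10 against AT1 (standard error 0.321, limma adjusted p = 0.739), and the exact permutation p was 0.1 in both. The latter no longer met the criterion without AT10 replicate 2, AT10 replicate 3 or AT1 replicate 2, with 1.02, 1.00 and 0.77. The most abundant genes of this list, the matrix proteins Sparc and Thbs1, had 1706 to 2209 and 1417 to 1956 FPKM.

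Of the genes that activate HGF or inhibit that step, 4 of 9 were tested and none met the criterion. Plat, the tissue plasminogen activator, had 82.6, 82.8 and 86.7 FPKM in FCA and 74.7, 68.7 and 70.6 FPKM in AT10. It had 82.6, 81.7 and 87.4 FPKM in AT1 and 86.4, 82.6 and 75.8 FPKM in AT01. All AT10 libraries lay below all others, and the log2 fold change against FCA was -0.23 (standard error 0.0575, limma adjusted p = 0.23). Of all records, 19.9% had no overlap between AT10 and FCA, 13.9% between AT10 and AT1 and 11.1% between AT10 and AT01.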

How the data were processed

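Poly(A) RNA of 12 libraries of rat FLS was sequenced. The authors deposited FPKM values to 2 decimals, 1 column per library, made with HISAT2 and StringTie as the paper's methods and the submitters' processing notes say. The notes also list cutadapt. The genome build and any scaling between libraries are not given in the sources used here, and the labels name another sequencer than the methods. No read counts per gene were used, so the counting error is unknown. The paper lists the reads of each library, but these did not enter the fits.

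Values were transformed as log2(FPKM + 1), and limma was run on the 11611 records whose mean reached 1 FPKM (version 3.58.1 in R 4.3.3, eBayes with trend), separately for each pair of groups, with Benjamini-Hochberg adjustment over all records. Permutation tests were exact, two-sided and on the difference of mean log2 values, and Python 3.11.15 with pandas 2.3.3 was used for values and Matplotlib 3.10.9 for figures. Groups came from the sample labels. All 10 factors were named, with the related genes that met a call rule in any of 7 comparisons, the 2 of highest mean in each list (1 such gene is not reported here), and the 3 records most like Esm1. The factors and gene lists were chosen with earlier results of these data known. Itga5 and Plat entered by their means, and Vegfa, Flt1, Flt4, Nrp2, Kdr, Tek and Met are named as ligands and receptors of the factors. Alternatives were a fit with all 4 groups, an unmoderated F test as in Ballgown, single libraries left out, the replicate number as a block, other filters (none, or 10 FPKM), a pseudocount of 0.1, gene names summed over records, and median-of-ratios scaling. Sequences are from RefSeq (GRCr8).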

Additional observations from a re-analysis of the deposited data

Results flagged for a closer look

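Among the 9 TCDCA libraries, AT10 replicate 3 lay apart in Vegfc, with 19.3 FPKM, where the other 8 ran from 9.8 to 13.8 FPKM. On the scale of log2(FPKM + 1) the gap to the nearest library was 0.499 of the whole range. This lay only just above Dixon's 95% critical value for 9 samples. Chance passes that value in about 1 of 20 sets, for a gene chosen beforehand and for libraries of the same group. Here the 9 libraries came from 3 doses, and Vegfc was flagged after its value had been seen. The rate of chance passes is therefore unknown here, and no conclusion is drawn from the test.

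By limma on the AT10 and AT1 libraries alone, the change of Esm1 from FCA differed between 10 and 1 µM TCDCA. The test of the difference itself, AT10 against AT1, gave a log2 fold change of -2.48 (limma adjusted p = 0.00298), with 3 of 3 AT10 libraries below all AT1 libraries. Its spread came from these 2 groups only. The adjusted p was 0.635 with 1 fit over all 12 libraries, 0.231 with the Ballgown-style F test and 0.0769 with the replicate block. The exact permutation p was 0.1, the smallest possible, and the moderated F test over the 4 groups gave an adjusted p of 0.605. Against FCA, AT10 and AT1 gave -1.51 and 0.97, and both of these values share the FCA libraries.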

How the results depend on the processing

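Of 714 log2 fold changes of the 7 factors under the alternatives, 712 stayed on their side of the criterion of the study, 2 came to meet it, and 0 were lost or reversed while called, while 32 changed sign without being called. Both gains were Esm1. In AT10 against FCA, the factors that met the criterion and those with an adjusted p under 0.05 ranged from 0 to 1 when single libraries were left out, with 1 without FCA replicate 3. In AT10 against AT01 they likewise ranged from 0 to 1, with 1 without AT01 replicate 3. The adjusted p of Esm1 in AT10 against AT1 was no longer under 0.05, so that 0 factors passed, with 1 fit over all 12 libraries (0.635), whose spread is estimated from all groups, with the Ballgown-style F test (0.231), which does not share the spread between genes and has a library covariate, and with the replicate block (0.0769). The replicate block changed no other call of the factors. Over all records, the deviations of libraries of the same replicate number had correlations between -0.105 and 0.0942, and 0 of 18 were over 0.1. For libraries of other numbers they ran from -0.154 to 0.149. Correlations over all records cannot tell whether single genes follow the replicate number. The paper describes the numbers as sets of repeats, so a pairing was not excluded. Sema3d in AT10 against AT1 lost the criterion with 1 fit over all libraries, with the Ballgown-style test and, at 0.67, with FPKM summed by gene name. The adjusted p of Cyr61 in AT1 against AT01 was 0.134 without a filter, 1 with 1 fit over all libraries, 0.674 with the Ballgown-style test and 0.426 with the replicate block. The causes were not tested. With 3 libraries a group and no counts, differences of low records such as Hgf and Angpt2 cannot be set against a counting error.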
